A study of Mus musculus with 4 samples.

Results

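The genes described here encode the MHC class II molecules of the mouse, the chaperones that load them with peptide, the invariant chain Cd74 and the class II transactivator Ciita. They were chosen by name, as H2-Aa, H2-Ab1, H2-Eb1, H2-DMa, H2-DMb1, H2-DMb2, H2-Oa, H2-Ob, Cd74 and Ciita, and all 10 were found by NCBI gene number among the 27179 genes of the deposited table. RNA-sequencing was performed on leukemia-initiating cells (LICs) from the bone marrow of mice with acute myeloid leukemia, which the study defines as Mac-1+/c-Kit+, in 4 libraries of which 2 were labelled WT and 2 CD274-null. In this model, fetal liver progenitors without mature lineage markers are given the fusion oncogene MLL-AF9 by retrovirus and transplanted into lethally irradiated C57BL/6 mice. All 4 libraries share the C57BL/6 strain, the oncogene and the labelled age of 6 weeks, and the groups differ in whether the leukemia cells were wild type or lacked CD274, the ligand of the inhibitory receptor PD-1. The labels give the cells as sorted by FACS, whereas the study describes the Mac-1+/c-Kit+ sort for its quantitative RT-PCR and its RNA-sequencing methods speak of tissue RNA, so that how far other marrow cells were removed is uncertain. The sources used here give neither the round of transplantation nor whether the 2 libraries of a group came from separate mice, so p-values measure only the spread between these libraries.

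MHC class II molecules are heterodimers of an alpha and a beta chain that display peptides from endocytosed proteins to CD4+ T cells. The chains assemble with the invariant chain, which blocks the groove and directs them to endosomes, where H2-DM exchanges the remaining fragment for other peptides and H2-O restrains H2-DM. Dendritic cells, macrophages and B cells express these genes most strongly. Their promoters share an X box and a Y box, bound by the RFX and NF-Y complexes, on which the coactivator CIITA is recruited.

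In GRCm38 the 8 H2 genes lay on chromosome 17 within 224 kb, from 34092379 to 34316674. H2-Aa (NCBI gene 14960, 34282744 to 34287823) and H2-Ab1 (14961, 34263227 to 34269418) encode the alpha and beta chains of the I-A molecule, and 13.3 kb separated them. H2-Eb1 (14969, 34305867 to 34316674) encodes the beta chain of I-E. H2-DMa (14998, 34119693 to 34139101), H2-DMb2 (15000, 34143229 to 34151553) and H2-DMb1 (14999, 34153191 to 34160229) encode the H2-DM chains. H2-Oa (15001, 34092379 to 34095234) and H2-Ob (15002, 34238905 to 34245908) encode the H2-O chains. Cd74 (16149) and Ciita (12265) lie on other chromosomes.

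The promoter stretches are shown because some of these genes were higher in CD274-null together while the values of their neighbours overlapped between the groups. They are RefSeq sequence of GRCm38.p6 on the strand of the gene, from 150 to 31 bases before the start of transcription, and capitals mark each match to a loose X box (AGNNAC followed directly by NNNTG) and to ATTGG or its complement (the Y box core) on either strand. For H2-Aa the stretch is chr17:34287854-34287973 on the minus strand, and the others are on the plus strand, at chr17:34305717-34305836 for H2-Eb1, chr17:34153041-34153160 for H2-DMb1, chr17:34145099-34145218 for H2-DMb2, chr17:34092229-34092348 for H2-Oa and chr17:34238755-34238874 for H2-Ob.
H2-Aa: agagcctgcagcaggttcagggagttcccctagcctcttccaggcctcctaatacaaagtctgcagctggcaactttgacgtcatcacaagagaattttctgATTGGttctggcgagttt
H2-Eb1: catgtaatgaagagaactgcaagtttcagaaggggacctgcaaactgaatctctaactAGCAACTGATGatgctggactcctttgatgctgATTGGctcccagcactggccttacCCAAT
H2-DMb1: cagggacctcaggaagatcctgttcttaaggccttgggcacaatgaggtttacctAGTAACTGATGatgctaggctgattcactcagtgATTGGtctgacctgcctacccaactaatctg
H2-DMb2: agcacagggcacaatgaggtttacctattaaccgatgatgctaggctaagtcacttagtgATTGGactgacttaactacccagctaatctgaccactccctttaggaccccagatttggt
H2-Oa: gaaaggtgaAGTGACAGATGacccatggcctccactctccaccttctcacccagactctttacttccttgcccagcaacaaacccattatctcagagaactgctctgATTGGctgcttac
H2-Ob: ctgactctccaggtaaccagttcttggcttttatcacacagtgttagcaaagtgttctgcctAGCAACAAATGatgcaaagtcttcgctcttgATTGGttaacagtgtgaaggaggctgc

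RefSeq promoter windows of 300 bases, 250 before to 50 after the start, were matched for 7 of the 10 genes. No window was given for H2-Ab1, Cd74 and Ciita. On either strand, the loose X box occurred in 14.8% and ATTGG in 37.4% of all 32851 windows, and a pair of them separated by 15 to 25 bases on 1 strand occurred in 0.17%. Such a pair was present for 3 of the 7 genes: H2-Eb1 with a gap of 22 bases, H2-DMb1 with 23 and H2-Ob with 20. The X match began 92, 95 and 88 bases before the start in these genes, respectively. The exact X box core occurred in 0.0639% of all windows and in none of these genes' windows. In the windows of H2-Aa, H2-DMa, H2-DMb2 and H2-Oa these letters gave no such pair.

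FPKM is the number of fragments scaled to gene length and to the mapped reads of the library. Reads recovered from the FPKM steps of all genes came to 8284132 to 10967450 per library. Cd274 itself did not separate the labels, with FPKM of 2.80 and 0.945 in the libraries labelled WT and of 1.43 and 2.29 in those labelled CD274-null (limma log2 fold change 0.09, Benjamini-Hochberg adjusted p = 0.955), and the deleted part of the gene is not given in the sources used here. Every direction below therefore rests on the labels. The LIC markers were present, since Hoxa9 lay between 71.3 and 75.8 FPKM and Itgam, the alpha chain gene of Mac-1, between 100.2 and 174. Kit was lower in WT replicate 1, at 6.59, than in the other libraries, at 16.2 to 19.5. The libraries also differed in sex-linked genes: the summed FPKM of 4 Y-linked genes was 86.0 and 66.2 in WT against 0.046 and 29.4 in CD274-null, and Xist was 2.57, 51.1, 107 and 68.7 in the same order.

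Of the class II genes, H2-Aa, H2-Eb1 and Cd74 were higher in the CD274-null libraries, by 2.41 to 3.07 on the log2 scale, whereas H2-Ab1 and the H2-DM genes overlapped between the groups. H2-Oa and H2-Ob were higher in both CD274-null libraries without reaching the candidate thresholds, and Ciita was scarcely detected. Groups were compared with limma on log2(FPKM + 0.5), a scale that understates the change of low genes, and a gene was called a candidate where its unadjusted p was below 0.01 and its groups differed by more than 1.5-fold. Of the 10 genes, 9 had a mean FPKM of at least 0.5 and were tested, and each of these also had a WT mean above that limit. Candidates numbered 3 of the 9, all higher in CD274-null, while 3.63% of the 13230 tested genes were candidates and 2.39% were candidates with higher values in CD274-null. The median log2 fold change was 1.33 over the 9 genes and 0.01 over all tested genes, and that of the class II genes was 0.77 without WT replicate 1 and 0.63 over those with a mean FPKM of at least 5. In both CD274-null libraries 5 of the 9 exceeded both WT libraries, compared with 25.6% of all tested genes. None of the 9 had an adjusted p under 0.05 in limma with Benjamini-Hochberg adjustment, 5 had an unadjusted p under 0.05, and across all genes these shares were 0.0756% and 13.7%. A linear model without moderation called 0 of the 9 and 170 of all tested genes, against 3 and 480. Without WT replicate 2 the log2 fold changes of H2-DMa and H2-Oa were 1.52 and 1.89. That of H2-Eb1 was 2.08 without CD274-null replicate 1 and 2.73 without CD274-null replicate 2.

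**Figure D1:**
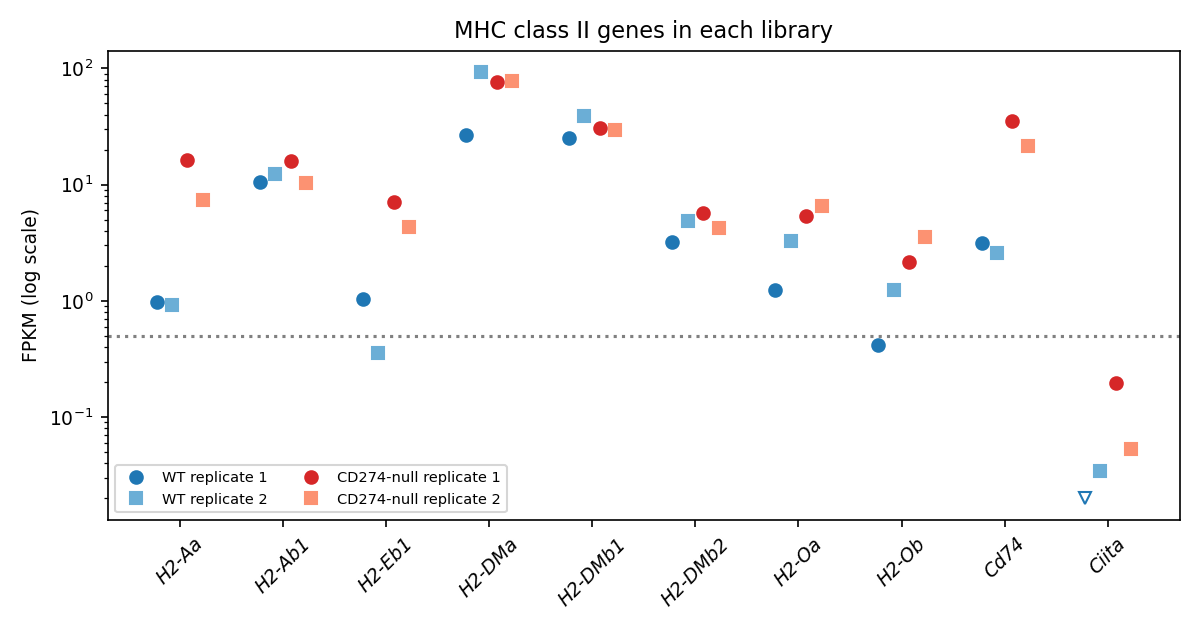
FPKM of the 10 class II genes (log axis) in each of the 4 libraries, with the dotted line at the filter of 0.5 and the open triangle for Ciita listed at 0. The red CD274-null points of H2-Aa, H2-Eb1 and Cd74 lie well above the blue WT points, whereas those of H2-Ab1, H2-DMa, H2-DMb1 and H2-DMb2 are interleaved with them.

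H2-Aa, the alpha chain of I-A, had FPKM of 0.970 and 0.919 in WT replicates 1 and 2 and of 16.4 and 7.42 in CD274-null replicates 1 and 2. Both WT values rested on few reads, 12 and 10, against 155 and 79. The WT libraries nearly coincided, the CD274-null libraries differed 2.21-fold from each other, and the groups did not overlap. Exact Poisson 95% intervals, which cover counting error only, ended at 1.70 and 1.69 in WT and began at 13.9 and 5.88 in CD274-null. Using limma, H2-Aa was higher in CD274-null by 3.0 (SE 0.43, 95% interval 1.95 to 4.05), a candidate with a Benjamini-Hochberg adjusted p of 0.140.

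H2-Ab1, the beta chain that pairs with H2-Aa, had FPKM of 10.5 and 12.3 in WT and of 16.1 and 10.4 in CD274-null. The groups overlapped, and the lowest value was in CD274-null replicate 2. Its log2 fold change was 0.18 (SE 0.30, 95% interval -0.54 to 0.90, limma adjusted p = 0.821), an interval that lies wholly below that of H2-Aa. The direction of H2-Ab1 turned when libraries were corrected for GC content (-0.05) or CD274-null replicate 1 was left out (-0.13).

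H2-Eb1, the beta chain of I-E, had FPKM of 1.04 and 0.353 in WT, from 20 and 6 reads, and of 7.11 and 4.33 in CD274-null, from 105 and 72 reads. The groups did not overlap. The log2 fold change was 2.41 (SE 0.45, 95% interval 1.31 to 3.51, limma adjusted p = 0.247). C57BL/6 mice lack a functional Ea gene, so that I-E is not formed, and the alpha chain gene H2-Ea was listed at 0 in all 4 libraries. The other E beta gene, H2-Eb2, reached at most 0.134 FPKM, from 2 reads, and was listed at 0 in WT replicate 1 and CD274-null replicate 2.

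Cd74, the invariant chain gene on chromosome 18 (60803849 to 60812652), had FPKM of 3.18 and 2.57 in WT and of 35.6 and 21.4 in CD274-null, from 52, 37, 446 and 302 reads. The CD274-null values were far outside the range of WT. Its log2 fold change of 3.07 (SE 0.33, 95% interval 2.27 to 3.86) came with the smallest adjusted p among the class II genes, 0.0693 by limma with Benjamini-Hochberg adjustment. The difference exceeded the spread within the groups, where the libraries differed by 0.26 in WT and by 0.72 in CD274-null on the same scale. By level, Cd74 had rank 2 of the 10 genes in CD274-null replicate 1 and rank 5 in WT replicate 1.

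H2-DMa, the alpha chain of the peptide exchange factor, had the highest FPKM of the class II genes in every library, with 26.6 and 93.1 in WT and of 76.4 and 77.8 in CD274-null. WT replicate 2 was the highest and WT replicate 1 the lowest of the 4 libraries, so that CD274-null lay inside the WT range. The 2 WT libraries differed by 1.79 in log2(FPKM + 0.5), beyond the 95th percentile of such differences over all tested genes in WT, 1.43. The log2 fold change of 0.63 (SE 0.54, 95% interval -0.69 to 1.94, limma adjusted p = 0.633) became -0.27 without WT replicate 1 and 1.52 without WT replicate 2.

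H2-DMb1, the more abundant H2-DM beta chain, had FPKM of 25.3 and 39.3 in WT and of 30.9 and 29.6 in CD274-null. The CD274-null values again fell between those of WT, and the log2 fold change was -0.06 (SE 0.27, 95% interval -0.71 to 0.59, limma adjusted p = 0.941). Without WT replicate 2 it was 0.25. H2-DMb2, its paralog, had FPKM of 3.19 and 4.87 in WT and of 5.75 and 4.22 in CD274-null, with a log2 fold change of 0.29 (SE 0.35, 95% interval -0.56 to 1.13, limma adjusted p = 0.743). This value was 0.015 without WT replicate 1, 0.56 without WT replicate 2, 0.083 without CD274-null replicate 1 and 0.49 without CD274-null replicate 2. The reference transcripts of the paralogs were 95.8% identical over 1080 aligned bases, and of windows of 50 bases, about the read length, 27.2% in H2-DMb1 and 32.8% in H2-DMb2 also occurred in another gene. How the authors assigned such reads is not given, so the split between H2-DMb1 and H2-DMb2 is uncertain.

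H2-Oa, the alpha chain of the H2-DM inhibitor, had FPKM of 1.24 and 3.28 in WT and of 5.39 and 6.51 in CD274-null. Both CD274-null libraries were higher, but WT replicate 2 was closer to CD274-null replicate 1 than to WT replicate 1 on the log2 scale. The log2 fold change was 1.33 (SE 0.45, 95% interval 0.25 to 2.41, limma adjusted p = 0.313), and 0.77 without WT replicate 1. Part of H2-Oa overlaps the noncoding gene BC051537, which held 21.7% of the 50-base windows of H2-Oa, so that reads of these genes could not be fully told apart.

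H2-Ob, the beta chain of the inhibitor, followed the same order of libraries, with FPKM of 0.421 and 1.25 in WT and of 2.16 and 3.54 in CD274-null. These values rested on 13, 34, 51 and 94 reads. The log2 fold change was 1.37 (SE 0.48, 95% interval 0.21 to 2.52, limma adjusted p = 0.327), and 0.90 without WT replicate 1. Neither H2-O chain was a candidate in the comparison of all 4 libraries.

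Ciita, the transactivator gene on chromosome 16 (10480014 to 10531064), was listed at 0 in WT replicate 1 and reached FPKM of 0.0345 in the other WT library. The CD274-null libraries had 0.199 and 0.0529. These were 0, 2, 10 and 3 reads. In WT replicate 1, 0 reads allow up to 0.0456 FPKM by the limit of 3 reads, which is close to a one-sided bound, and the two-sided exact Poisson 95% interval ends at 0.0560. Both CD274-null values exceeded both WT values. The exact Poisson 95% interval of CD274-null replicate 1 (0.0952 to 0.365) lay above both limits, whereas the intervals of WT replicate 2 (0.00418 to 0.125) and CD274-null replicate 2 (0.0109 to 0.155) overlapped with each other and with that of CD274-null replicate 1. The gene was under the filter and was not tested.

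**Figure D2:**
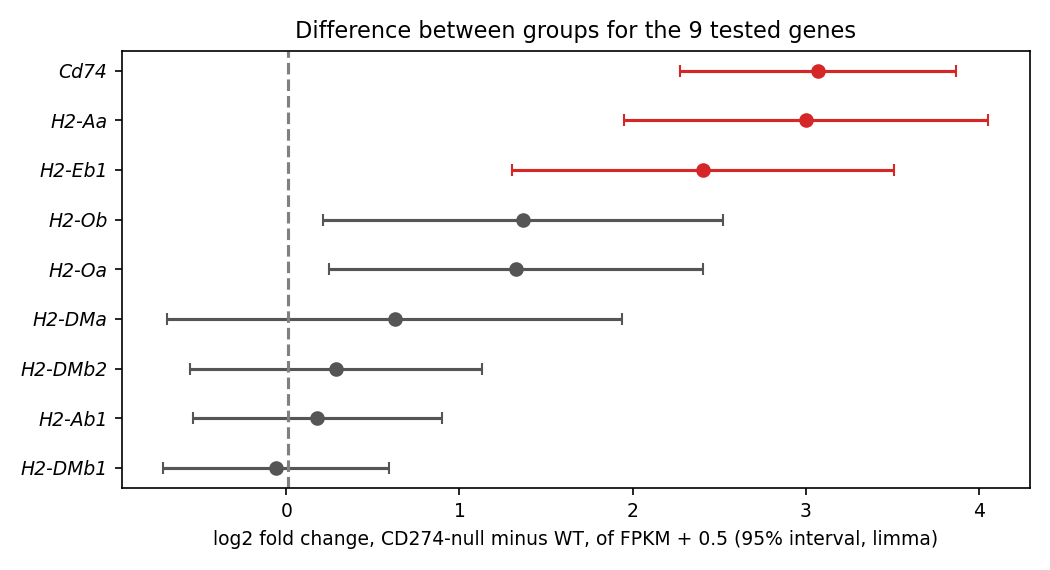
Log2 fold change (CD274-null minus WT, of FPKM + 0.5) of the 9 tested class II genes with 95% limma intervals, candidates in red and the median of all tested genes, 0.01, as the dashed line. The intervals of Cd74, H2-Aa and H2-Eb1 begin above 1, those of H2-Ob and H2-Oa begin just above 0 and the other 4 cross 0.

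FPKM is scaled per length, so the chains of a heterodimer could be compared within a library as far as the lengths used by the authors, which are not given, hold. For H2-DMa and H2-DMb2 the FPKM steps implied 0.471 and 0.552 of the annotated length, against 0.914 for H2-DMb1. Shorter lengths in the authors' table and reads recovered only up to a factor cannot be told apart here, so the levels of the H2-DM ratios are uncertain, whereas their comparison between libraries does not depend on the lengths. H2-Aa stood at 0.0924 and 0.0749 of the H2-Ab1 level in WT replicates 1 and 2, but at 1.02 and 0.717 of it in CD274-null replicates 1 and 2. The alpha chain transcript was thus far scarcer than its partner in WT, 10.8- and 13.4-fold, and near it in CD274-null. Exact binomial 95% intervals, which cover counting error only, reached at most 0.166 in WT and began at 0.533 or higher in CD274-null. On the log2 scale the ratio was -3.59 ± 0.21 in WT and -0.23 ± 0.36 in CD274-null (SD, n = 2 each), a difference of 3.36. An exact two-sided permutation test gave p = 0.33, the smallest that 2 libraries against 2 allow.

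The H2-DMa/H2-DMb1 ratio was 1.05 and 2.37 in WT against 2.47 and 2.62 in CD274-null. WT replicate 1 had the lowest ratio, and the log2 difference of 0.69 fell to 0.11 without it. The H2-DMa/H2-DMb2 ratio, 8.33 and 19.1 in WT against 13.3 and 18.5 in CD274-null, overlapped between the groups. H2-DMb1 exceeded H2-DMb2 7.94- and 8.07-fold in WT against 5.37- and 7.03-fold in CD274-null, within the overlap of the counting intervals.

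The H2-Oa/H2-Ob ratio was 2.94 and 2.62 in WT against 2.5 and 1.84 in CD274-null, a log2 difference of -0.37 that was -0.04 with 0.5 FPKM added to each chain. H2-Oa was thus above H2-Ob in every library, and both chains were lowest in WT replicate 1. Besides the fixed pairs, ratios of Cd74 were examined after the values were seen. Cd74 was 3.27 and 2.80 times H2-Aa in WT against 2.17 and 2.89 times in CD274-null, which overlapped, although the group means of H2-Aa and Cd74 differed 12.6- and 9.93-fold. Relative to H2-Ab1, Cd74 was 0.302 and 0.209 in WT against 2.21 and 2.07 in CD274-null.

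**Figure D3:**
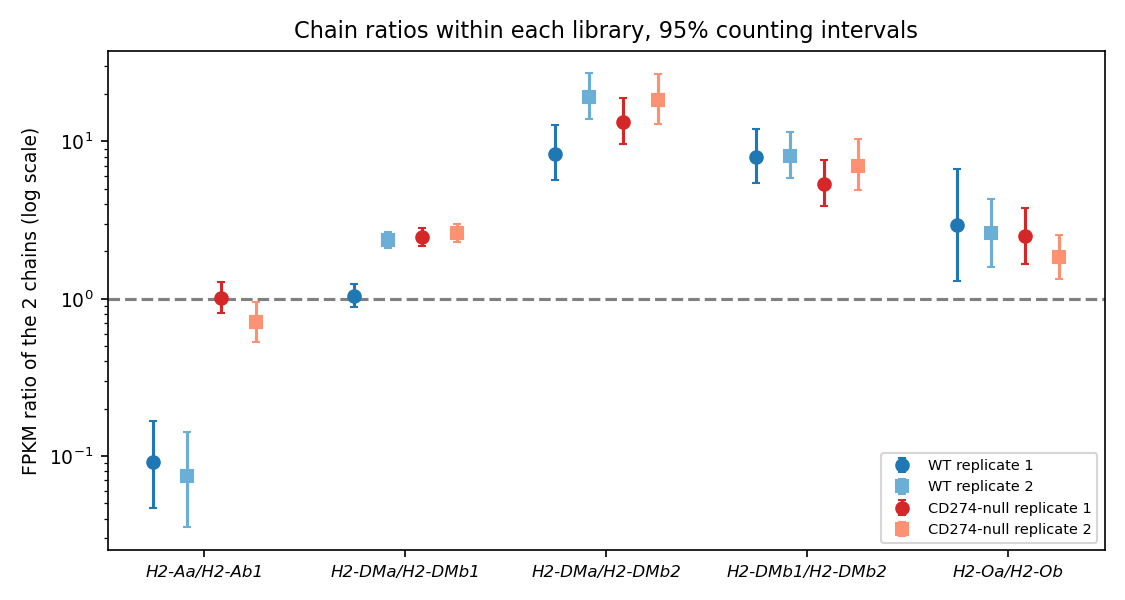
FPKM ratio of the chains of each pair (log axis) in each library, with exact binomial 95% intervals for counting error and the dashed line at equal levels. In H2-Aa/H2-Ab1 all intervals of WT (0.0749 and 0.0924) lie below all those of CD274-null (0.717 and 1.02), the points of the groups are also apart in 3 of the other 4 pairs with intervals of the groups that overlap, and in H2-DMa/H2-DMb1 WT replicate 1 stands apart at 1.05.

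In order of FPKM, H2-DMa and H2-DMb1 led in both WT libraries, followed by H2-Ab1, and their counting intervals overlapped in WT replicate 1 (23.3 to 30.1 and 22.8 to 28.0). In WT the other 6 tested genes lay at 5 FPKM or less. In CD274-null replicate 1 the order was H2-DMa, Cd74, H2-DMb1, H2-Aa and H2-Ab1, and the last of these did not differ beyond counting error, at 16.4 and 16.1. H2-Ob and Ciita came last in both CD274-null libraries. Among all genes above 0 in a library, H2-Aa moved from percentiles 28.6 and 25.6 in WT to 66.8 and 53.3 in CD274-null, and Cd74 from 40.1 and 35.4 to 82.7 and 74.3.

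**Figure D4:**
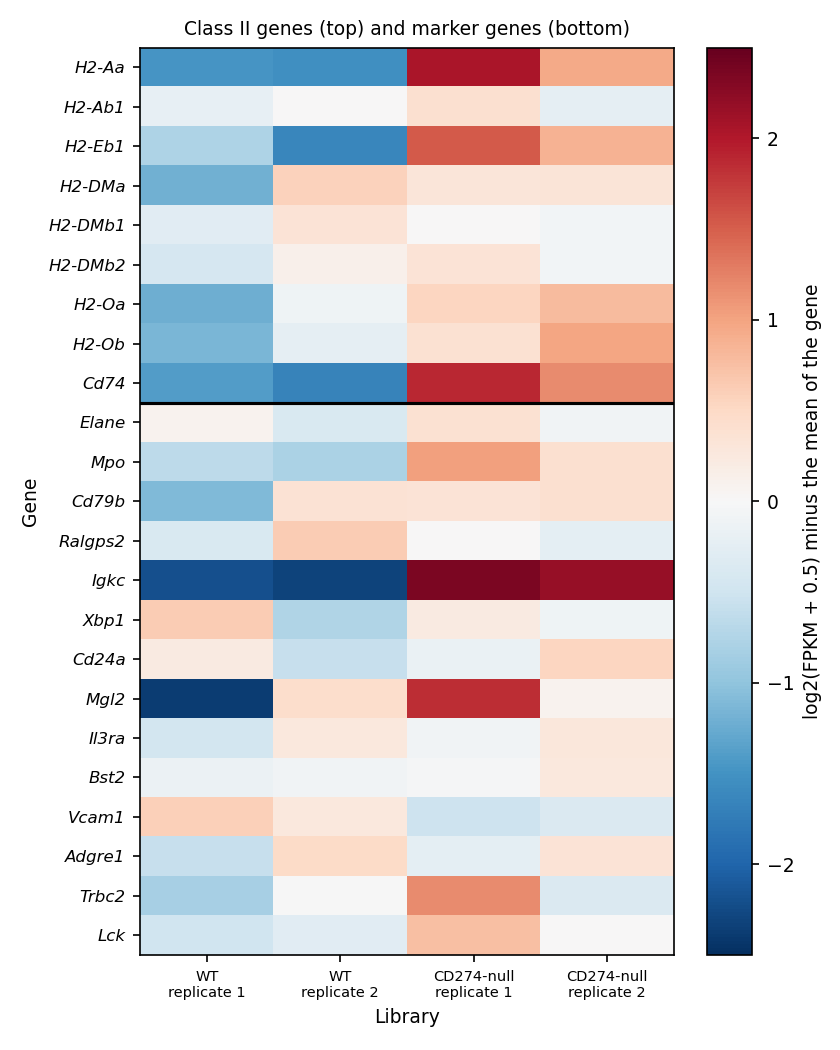
Log2(FPKM + 0.5) of each gene minus its mean over the 4 libraries, for the 9 tested class II genes above the line and for the 2 genes of each marker list with the highest FPKM in any library below it. H2-Aa, H2-Eb1, Cd74 and the light chain gene Igkc are low in both WT libraries and high in both CD274-null libraries, whereas H2-DMa, H2-Oa and H2-Ob are lowest in WT replicate 1.

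Class II expression in marrow can also come from other cells, and in bulk RNA fewer cells of a type and less RNA per cell cannot be told apart. Of 15 B cell markers, 7 and 8 were above 0 in WT and 12 and 15 in CD274-null, with summed FPKM of 17.6, 46.3, 46.0 and 46.3. Most of this sum was Cd79b, and Pax5, Ms4a1 and Ebf1 were at 0 in both WT libraries. In CD274-null replicates 1 and 2 these genes were also near the floor, with 1 and 5 reads for Pax5 and 0 and 1 each for Ms4a1 and Ebf1. None of the 3 tested B cell markers was a candidate. Of 10 plasma cell markers 5 were tested and 3 were candidates, all higher in CD274-null, and the summed FPKM was 196 and 90.2 in WT against 411 and 471 in CD274-null. Most of the WT sums was Xbp1, whereas Igkc was the largest part of the CD274-null sums. Igkc, the kappa light chain, was at 8.64 and 7.98 in WT and at 214 and 189 in CD274-null (log2 fold change 4.52, limma adjusted p = 0.00245). Jchain, which joins IgM and IgA, was at 0.370, 0.514, 12.3 and 10.5. Its WT mean of 0.442 was under the filter, so that it was tested only through its CD274-null values. Xbp1, by contrast, was highest in WT replicate 1, at 177, and its groups overlapped. Among the plasma cell markers under the filter, Sdc1 overlapped between the groups and the others were higher in both CD274-null libraries. These rested on few reads, such as 0, 0, 8 and 3 for Mzb1 and 0, 1, 1 and 1 for Tnfrsf17.

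Conventional dendritic cell markers summed to 165 and 142 in WT and to 234 and 230 in CD274-null, with 0 of 6 tested genes being candidates. Their leading genes, Cd24a and Mgl2, made up most of each sum, and both overlapped between the groups. Cd24a was at 147 and 84.3 in WT and at 113 and 183 in CD274-null. Mgl2 was at 4.52 and 34.9 in WT and at 93.7 and 27.3 in CD274-null. Itgax, which encodes CD11c, was the only tested gene of this list with both CD274-null values above both WT values, at 0.344, 1.02, 1.49 and 2.10 FPKM (limma adjusted p = 0.404). Of the genes under the filter, Clec9a had 1, 1, 9 and 16 reads and Cd209a had 1, 0, 11 and 15, also higher per length and depth in both CD274-null libraries, whereas Zbtb46, Xcr1 and Batf3 overlapped. Ccr7 had 1, 0, 1 and 4 reads, so that WT replicate 1 and CD274-null replicate 1 differed only by the scaling to depth. Plasmacytoid dendritic cell markers summed to 97.6 and 132 in WT and to 124 and 168 in CD274-null, led by Il3ra and Bst2, and Tcf4 was the candidate among 5 tested genes, at 1.74, 2.72, 7.40 and 23.6. Under the filter, Siglech had 0, 0, 1 and 1 reads, Ccr9 had 1, 2, 9 and 7 and Ly6d had 0, 1, 4 and 6, whereas Pacsin1 and Klk1 overlapped. Of 6 tested macrophage markers 3 had higher means and 3 lower means in CD274-null, and 1 was a candidate. Their summed FPKM of 148 and 146 in WT against 90.4 and 106 in CD274-null was carried by Vcam1, the candidate, which was lower in CD274-null (117, 92.3, 53.7 and 59.8 FPKM). Without Vcam1 the sums overlapped, at 30.96 and 53.6 in WT and at 36.7 and 46.2 in CD274-null. Adgre1 was not a candidate and Timd4 was at 0 in every library. T cell markers summed to at most 7.35 FPKM, in CD274-null replicate 1, where Trbc2 and Lck reached the highest values of the list in any library, 1.52 and 1.13. Among leukemia markers, Mpo, a granule enzyme, was at 444, 403, 1427 and 925, while Elane, at 3818, 2780, 4673 and 3409, overlapped between the groups. The part of these cell markers, of the sex-linked genes and of the Kit level in the class II differences was not tested.

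**Figure D5:**
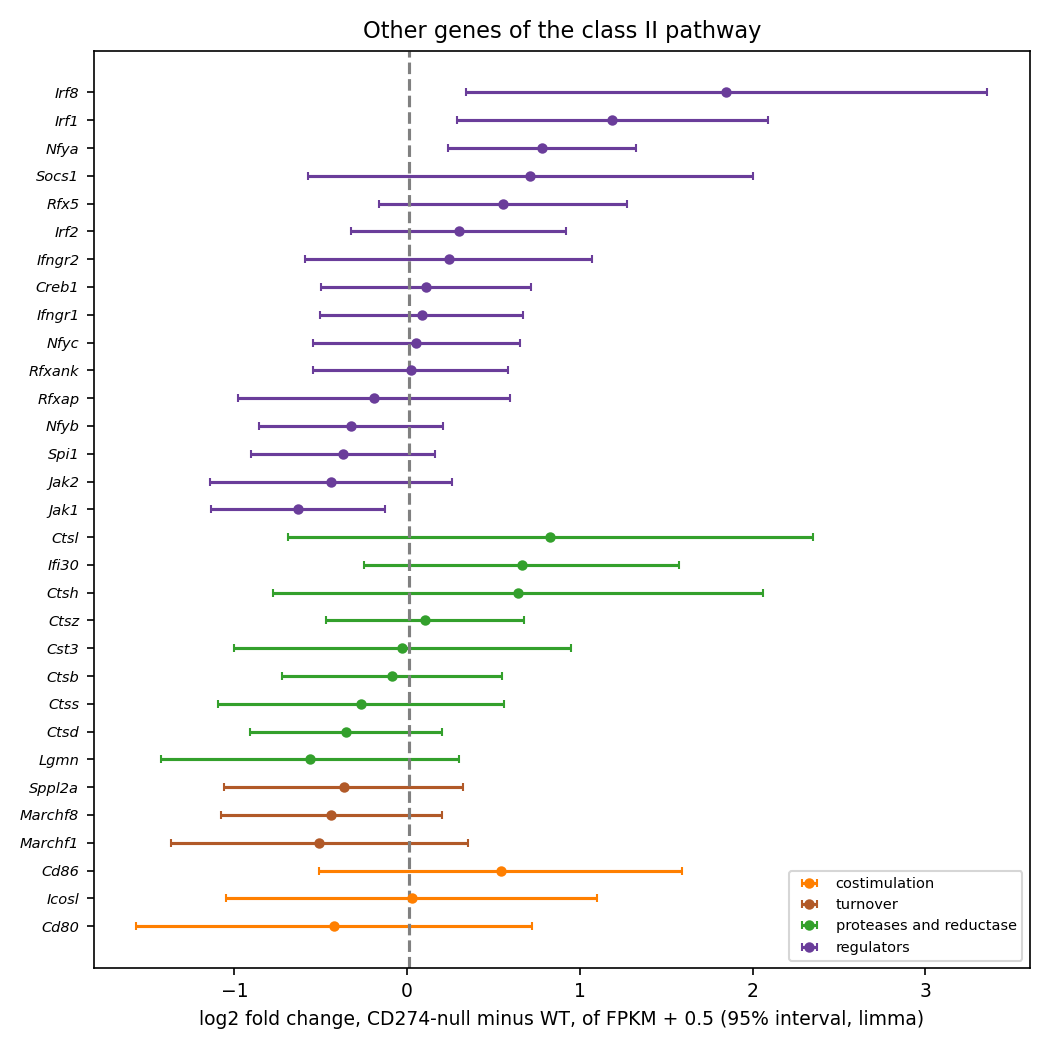
Log2 fold change (CD274-null minus WT, of FPKM + 0.5) with 95% limma intervals for the tested genes of the class II pathway outside the 10 genes that are reported here, by role, with the median of all tested genes as the dashed line. Only the intervals of Irf8, Irf1 and Nfya lie wholly above 0 and only that of Jak1 wholly below it, and none of the genes drawn was a candidate.

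The remaining pathway genes came from a list of 36, of which 32 were tested. None was a candidate by limma and 4 had an unadjusted p under 0.05, compared with 3.63% and 13.7% of all tested genes. The lowest Benjamini-Hochberg adjusted p was 0.288 by limma, and the median log2 fold change was 0.04. Of 17 tested regulators 12 had higher means and 5 lower means in CD274-null. Rfx5, the DNA-binding subunit of RFX, was at 4.70 and 6.78 FPKM in WT and at 8.5 and 8.58 in CD274-null (log2 fold change 0.56, SE 0.30, limma adjusted p = 0.453). Rfxank and Rfxap, the other RFX subunits, had log2 fold changes of 0.02 and -0.19. Nfya, a subunit of NF-Y, had a log2 fold change of 0.78 (limma adjusted p = 0.288). The interferon-responsive factor Irf1 was at 14.7 and 12.9 in WT and at 22.0 and 46.5 in CD274-null, and Irf8, a factor of dendritic cell and monocyte development, was at 8.10 and 30.4 in WT and at 41.6 and 81.4 in CD274-null. Irf1 and Irf8 became candidates when the replicate number was added to the fit. Without WT replicate 2 the candidates of the list were Irf8 and Ifi30, and without CD274-null replicate 1 they were Irf1 and Ctsl.

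Ifngr1 and Ifngr2, the interferon-gamma receptor chains, had log2 fold changes of 0.09 and 0.24, and the kinase Jak1 of -0.63. Of 9 proteases and related genes that process antigen or the invariant chain, 4 had higher means and 5 lower means in CD274-null, and 0 were candidates. Ctss, which cleaves the invariant chain, had a log2 fold change of -0.27 (95% interval -1.10 to 0.56) and Ifi30, the lysosomal thiol reductase, of 0.66 (-0.25 to 1.57). Marchf1 and Marchf8, ubiquitin ligases that remove class II from the surface, and Sppl2a, which degrades the invariant chain fragment, had log2 fold changes of -0.51, -0.44 and -0.37, all with intervals that included 0. Of the costimulatory genes, Cd86, Cd80 and Icosl were tested and Cd40 was under the filter, and 0 were candidates.

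The 5 genes whose profile over the 4 libraries was closest to the mean profile of the 9 tested class II genes were Gpr18, Kpna2, the gene with NCBI number 100504649, Rrad and Rnpep, with root mean square distances of 0.0952, 0.10, 0.10, 0.101 and 0.114 in log2(FPKM + 0.5). Rnpep, an aminopeptidase, was at 50.2 and 69.8 FPKM in WT and at 143 and 119 in CD274-null. The class II genes themselves lay farther from their own mean, from 0.31 for H2-Oa to 0.90 for Cd74. Between the groups, Cd74, H2-Aa and H2-Eb1 moved more than the mean, whereas H2-DMa, H2-DMb1, H2-DMb2 and H2-Ab1 moved less. H2-Oa and H2-Ob, with log2 fold changes of 1.33 and 1.37, lay between these sets. Their WT libraries stood apart, with replicate 1 minus replicate 2 at -1.12 for H2-Oa and -0.93 for H2-Ob. This difference was -1.79 for H2-DMa.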

How the data were processed

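The authors made TruSeq v2 libraries, sequenced them on a HiSeq instrument and aligned the reads to GRCm38. The submitters' processing notes name CASAVA 1.8.2 and TopHat2 2.0.12. The deposited values are FPKM on a linear scale, one column per library, and the program, gene lengths and strand setting behind them are not given in the sources used here. Libraries were grouped by their labels, 2 per group, and the main fit used the replicate numbers only as names. Whether they mark paired libraries is not given in the sources used here.

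Genes were matched by NCBI gene number. Genes whose mean FPKM reached 0.5 (13230 genes) were fitted on log2(FPKM + 0.5) by limma 3.58.1 under R 4.3.3, using lmFit and eBayes with a trend and no covariate, and p-values were adjusted over all of them by the Benjamini-Hochberg method. A candidate had an unadjusted p below 0.01 with a difference of more than 1.5-fold. Because FPKM of a gene steps by whole reads, reads were recovered in lowest terms (within 0.005 of a whole number) for 17082 of 17083 genes above 0 in at least 2 libraries. Such reads are lower bounds if the 4 true numbers have a common divisor, and intervals are then too wide. For H2-DMa and H2-DMb2, with implied lengths of 0.471 and 0.552 of the annotated ones, either this or shorter lengths behind FPKM are possible. Python 3.11.15 and scipy 1.17.1 gave exact intervals and permutation tests. Both the fit and the recovery were tested on simulated data, which checked the code only. For the fit, reads were drawn with the same dispersion for all genes, so its error rates in these libraries were not tested.

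Named genes were the 10 genes, Cd274, pathway genes that were candidates with Rfx5, H2-Ea and H2-Eb2, the 2 genes of each marker list with the highest FPKM in any library and the 5 nearest profiles, and other pathway and marker genes named were chosen after their values were seen. Some listed genes enter the counts but are not reported here by name or drawn. The genes and lists were chosen with earlier results of these data known. Alternatives were pseudocounts of 1 and 0.1, other filters and scalings, eBayes without trend, no moderation, the replicate number as a block, voom on recovered reads, GC correction and leaving out each library.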

Additional observations from a re-analysis of the deposited data

How the results depend on the processing

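H2-Aa and Cd74 remained candidates in 15 of 16 alternatives each and H2-Eb1 in 12 of 15, always higher in CD274-null. A linear model without moderation called 0 of the class II genes and 170 of all genes, against 3 and 480. Leaving out 1 library gave 2 to 5 class II candidates (5 without WT replicate 2, 2 without either CD274-null library), 147 to 634 over all genes (235 without CD274-null replicate 1, 147 without CD274-null replicate 2), and 0 to 2 of the pathway genes. The median log2 fold change of the class II genes was 0.63 with a mean FPKM of at least 5, where fewer genes were tested, and 0.77 to 1.83 when libraries were left out. Adjusted p ranged from 0.0235 to 0.517 for Cd74, from 0.0685 to 0.517 for H2-Aa and from 0.117 to 0.941 for H2-Eb1 (limma).

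The replicate block kept 3 class II candidates, gave Cd74 an adjusted p of 0.0235, and called 526 genes, among them 2 of the pathway list, Irf1 and Irf8. Deviations of same-numbered libraries correlated at -0.02 over all tested genes, so no pairing by number was seen. This correlation cannot tell whether libraries were prepared together. With a GC correction the 3 class II candidates remained, and over all genes the split of higher and lower candidates was 160 and 162, against 316 and 164. With GC correction and the block it was 140 and 143 of 283, with 1 pathway gene, Irf8. Quantile normalization gave 254 and 210, and scaling to equal medians 246 and 196.

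Directions that turned were those of H2-Ab1, at -0.052 with GC correction (also with the block) and from -0.13 to 0.49 without 1 library, H2-DMa, from -0.27 to 1.52, and H2-DMb1, from -0.37 to 0.25. The log2 difference of the H2-Aa/H2-Ab1 ratio was 2.82 with 0.5 FPKM added to each chain and 3.11 to 3.61 without 1 library. For H2-Oa/H2-Ob these were -0.040 and -0.59 to -0.15. Without 1 library, H2-DMa/H2-DMb1 ranged from 0.11 to 1.28, H2-DMa/H2-DMb2 from -0.29 to 0.91 and H2-DMb1/H2-DMb2 from -0.58 to -0.19. The cause of these shifts was not tested beyond what each setting changes. With 10 and 12 reads, the WT level of H2-Aa is loosely known, and Ciita rests on 0 to 10 reads per library.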

Other observations

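The 5 profiles closest to the mean of H2-Aa, H2-Eb1 and Cd74, a grouping made after their values were seen, were those of Igkv9-120, Dmrtb1, Snord11, Ighv1-54 and Igkv5-48, with root mean square distances of 0.208 to 0.275 in log2(FPKM + 0.5). Of these, 4 were listed at 0 in both WT libraries and so passed the filter through CD274-null. In CD274-null replicates 1 and 2 their FPKM was 3.25 and 2.31 for Igkv9-120, 5.38 and 3.19 for Snord11, 4.23 and 1.37 for Ighv1-54 and 3.26 and 2.89 for Igkv5-48. Dmrtb1 was at 0.963 and 1.09 in WT and at 12.2 and 8.39 in CD274-null. No list or test was applied to these genes.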
